A study of Mus musculus with 10 samples.

Results

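Matricellular proteins are secreted into the extracellular matrix but do little to build it; they bind cells, growth factors and structural fibers and change how cells attach, move and respond. Their genes were followed in whole lung of mice with increased pulmonary flow (IPF) from early life. The 10 genes described are those of osteopontin (Spp1), tenascin C and tenascin XB (Tnc, Tnxb), periostin (Postn), thrombospondins 1, 2 and 4 (Thbs1, Thbs2, Thbs4), SPARC and its relative hevin (Sparc, Sparcl1), and connective tissue growth factor (Ctgf). They were picked by symbol, and all 10 were found among the 54532 genes of the expression table. Lungs came from wild-type C57BL/6J mice. In the IPF group a needle was passed on postnatal day 7 (P7) from the abdominal aorta into the vena cava beside it, which sends extra blood to the right heart and the lungs. Sham mice had the same laparotomy with no puncture. mRNA of whole lung was sequenced at P30 from 5 mice per group, and all cell types of the organ contribute to each value. The methods set designated animals aside for sequencing, and no label gives litter or sex.

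Most of these proteins are scarce in quiet adult tissue and are made in growth, repair and mechanical load. Osteopontin, a phosphorylated ligand of integrins and CD44, is made in the lung mainly by macrophages and some epithelial cells, whereas tenascins, periostin and Ctgf come mainly from fibroblasts and mural cells. Ctgf is a classical target of TGF-β and of the mechanically regulated YAP and TAZ coactivators. In bulk tissue, fewer cells of a type and less RNA per cell cannot be told apart.

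Expression is given in FPKM, the number of fragments on a gene scaled by the length of the gene and by the size of the library. The depth was 15483046 to 19026843 reads on genes per library, and the number of mice, not the depth, limits precision for every member but Thbs2 and Thbs4. The groups differed in more than the surgery. Xist, the RNA that silences an X chromosome in females, was at 26.8 to 43.2 FPKM in the IPF lungs and at 0.0301 to 0.0767 FPKM in the sham lungs, while the Y-linked Ddx3y was at 0 FPKM in every IPF lung and at 14.3 to 21.4 FPKM in the sham lungs. Every IPF lung thus had the female pattern of these genes and every sham lung the male pattern. The methods instead describe pups of both sexes, balanced between groups where feasible. Sex chromosomes and surgery cannot be told apart in any comparison that follows. The clock gene Arntl was at 3.31 to 6.85 FPKM in IPF and 0.311 to 0.452 FPKM in sham lungs, and its part in the results was not tested. None of the 10 members lies on a sex chromosome.

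Of the 10 matricellular genes, 1 rose in IPF lungs (Spp1), 2 fell (Tnxb and Ctgf) and 6 did not pass the test. Thbs4 was too low to be tested, with a mean below 0.1 FPKM. A gene passed at an adjusted p under 0.05 in limma on log2(FPKM + 0.1), adjusted over all 20448 genes tested. Among all genes tested, 3.71% rose and 2.14% fell, 5.85% in either direction. The median log2 fold change of the 9 tested members was -0.06, and that of all genes tested was 0.00. The groups did not overlap in 2 members, Spp1 and Tnxb, against 7.29% of all genes tested. When a change above 1 on the log2 scale was also required, 1 member, Ctgf, remained past both limits, against 1.14% of all genes tested. Tnxb, with a log2 fold change of -0.99, was just short of that limit, and it was past it (2 members past both limits) without IPF replicate 1 or 3 or sham replicate 2 or 4, at -1.05 to -1.02. Without IPF replicate 2 the count was also 2, with Spp1 at 1.05 and adjusted p = 0.00599 in limma beside Ctgf.

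**Figure D1:**
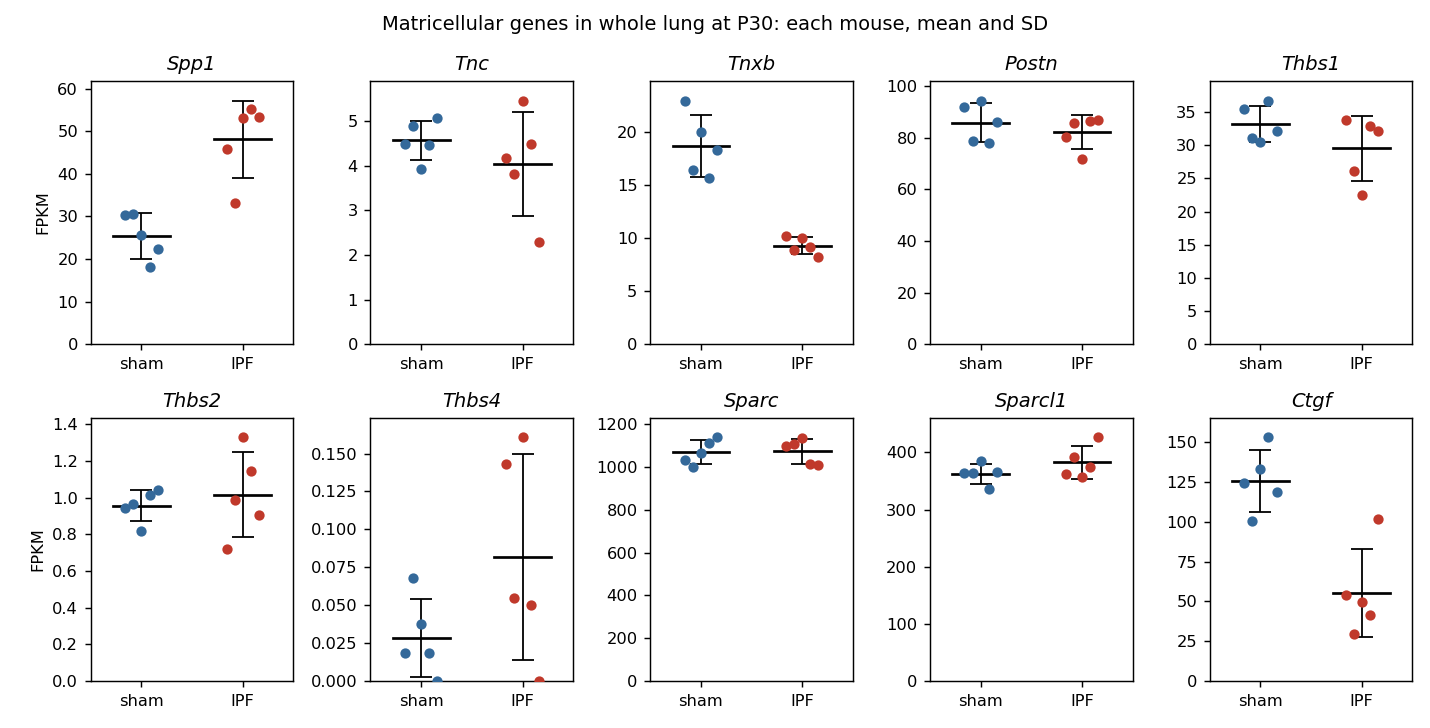
FPKM of each of the 10 matricellular genes in the 5 sham (blue) and 5 IPF (red) lungs, with 1 point per mouse, a horizontal line at the mean and bars of 1 SD; each axis starts at 0. The IPF points of Spp1 lie above all sham points and those of Tnxb below them, while for Ctgf 1 IPF lung at 101.8 FPKM reaches the sham range.

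Osteopontin mRNA was higher in every IPF lung than in any sham lung. Spp1 (ENSMUSG00000029304, GRCm38, chr5:104435118-104441050, plus strand) was at 45.8, 33.3, 53.1, 55.2 and 53.4 FPKM in IPF replicates 1 to 5. The sham replicates 1 to 5 were at 30.3, 30.6, 25.7, 18.1 and 22.2 FPKM. The lowest IPF lung, replicate 2, stood only a little above sham replicates 1 and 2, and the other 4 IPF lungs were well clear of the sham range. The means were 48.2 ± 9.06 FPKM in IPF and 25.4 ± 5.33 FPKM in sham lungs (SD, n = 5 each). The fold change was 1.90, or 0.92 on the log2 scale (standard error 0.17, 95% interval 0.55 to 1.30, adjusted p = 0.00943 in limma). An exact two-sided permutation test of the same difference gave p = 0.00794, the smallest that 5 against 5 allows. Each lung had 497 to 1658 reads on the gene, so counting error was small beside the spread between mice. The only gene that overlaps it on the same strand, Gm42793, averaged 0.0413 FPKM.

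The sequence before the Spp1 start is shown because this gene carries the rise, together with the study's own Spp1 primers, which mark what its qRT-PCR amplified. RefSeq gives 2 Spp1 starts. The 250 bases upstream of the first (GRCm38.p6, chr5:104434861-104435110, plus strand) hold 1 match, in capitals, to the RUNX motif AACCACA, at position -129 from the start. The window of the second (chr5:104435942-104436191, plus strand) holds no match to any motif searched and is not printed.
Spp1 promoter: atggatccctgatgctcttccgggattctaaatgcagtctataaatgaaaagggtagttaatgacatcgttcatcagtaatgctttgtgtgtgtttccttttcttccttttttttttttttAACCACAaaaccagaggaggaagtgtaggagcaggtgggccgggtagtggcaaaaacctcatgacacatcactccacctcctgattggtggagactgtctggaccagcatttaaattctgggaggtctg
Spp1 forward primer: agcaagaaactcttccaagcaa
Spp1 reverse primer: gtgagattcgtcagattcatccg
Both strands were searched for 4 motifs, those of AP-1 (TGANTCA), TEAD (GGAATG), RUNX (AACCACA) and the clock factors' E-box (CACGTG). The RUNX letters stand in 4.4% of 32851 RefSeq promoter windows of the same length. A match of letters is a description and not a site. Both primers matched 10 of 12 annotated Spp1 transcripts, 9 of them among the 10 that code for protein, with a product of 134 bases in each.

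Of the genes for osteopontin receptors, those for CD44 and the αv and β3 integrin chains did not pass the test and that for the α9 chain fell. Cd44, a hyaluronan and osteopontin receptor, was at 23.5 ± 2.28 FPKM in IPF and 20.8 ± 1.86 FPKM in sham lungs (SD, n = 5 each), a log2 difference of 0.18 with adjusted p = 0.254 in limma. Itgav, the αv chain of the integrins that bind osteopontin, periostin and tenascins, differed by -0.02 on the log2 scale, with a 95% interval of -0.16 to 0.12. Itgb3, the β3 chain that pairs with αv, was at 7.21 ± 0.951 FPKM in IPF and 5.65 ± 0.761 FPKM in sham lungs (SD, n = 5 each), with 4 of 5 IPF lungs above all sham lungs. Its log2 difference was 0.35, with adjusted p = 0.107 in limma. Of 15 receptor genes tested, none rose, 1 fell, and their median log2 fold change was 0.10. The one that fell was Itga9, the chain of the α9β1 integrin that binds tenascin C and osteopontin. Its level was 22.2 ± 2.18 FPKM in IPF and 29.9 ± 2.72 FPKM in sham lungs (SD, n = 5 each), with no overlap, a log2 fold change of -0.43 and adjusted p = 0.0120 in limma. It also passed in each of 10 fits that left out 1 mouse. Without IPF replicate 5, Itgb3 and Itgb6 passed as higher as well (log2 fold changes 0.41 and 0.62, adjusted p = 0.0493 and 0.0119 in limma).

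Markers of cells that make osteopontin were read beside Spp1. Of 5 genes of interstitial macrophages, all had positive log2 fold changes (median 0.40) and 1 passed, the chemokine receptor Cx3cr1, at 4.90 ± 0.440 FPKM in IPF and 2.48 ± 0.453 FPKM in sham lungs (SD, n = 5 each). Its log2 fold change was 0.97, with adjusted p = 0.00118 in limma. The summed level of the list was 76.3 to 96.9 FPKM in IPF and 50.5 to 75.3 FPKM in sham lungs. Of 7 alveolar macrophage genes none passed in limma (Ear2 did without sham replicate 5, at 0.48 and adjusted p = 0.0384), and their sum was 354.5 to 554.2 FPKM in IPF and 324.0 to 497.7 FPKM in sham lungs. Of 5 genes of lipid-handling macrophages none passed in limma either. Their sum was 199.4 to 241.2 FPKM against 184.8 to 230.0 FPKM, most of it from Cd9, a gene of many cell types. The more specific Gpnmb was at 2.47 ± 0.530 FPKM in IPF and 2.19 ± 0.555 FPKM in sham lungs, and Trem2 at 0.636 ± 0.118 FPKM and 0.471 ± 0.0948 FPKM (SD, n = 5 each). Fabp5, with the smallest p of this list, differed by 0.38 on the log2 scale (adjusted p = 0.222 in limma). No gene of these 3 lists was at 0 in all lungs, and the part of these cells in the Spp1 difference was not tested.

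The tenascins parted. Tnxb, the large tenascin that binds collagen fibrils and decorin, fell to about the same level in all 5 IPF lungs, and Tnc, the tenascin of remodeling tissue, did not pass the test. Tnxb (ENSMUSG00000033327, GRCm38, chr17:34670535-34719815, plus strand) was at 10.2, 8.85, 10.0, 9.16 and 8.23 FPKM in IPF replicates 1 to 5. The sham replicates 1 to 5 were at 23.0, 16.5, 20.02, 15.7 and 18.3 FPKM. Every IPF lung was far below the lowest sham lung, and the IPF values were the more tightly grouped. The means were 9.29 ± 0.824 FPKM and 18.7 ± 2.94 FPKM (SD, n = 5 each). This was a 1.99-fold lower level in IPF, a log2 fold change of -0.99 (standard error 0.10, 95% interval -1.22 to -0.76, adjusted p = 0.00049 in limma, exact permutation p = 0.00794). The gene had 1778 to 2312 reads per IPF lung and 3185 to 4629 per sham lung. It overlaps the end of the pseudogene Cyp21a2-ps on the opposite strand, which averaged 0.178 FPKM.

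The Tnxb promoter is printed as the counterpart of that of Spp1, the 2 genes whose groups did not overlap. Its 250 bases upstream of the RefSeq start (GRCm38.p6, chr17:34670285-34670534, plus strand) hold 1 match to the AP-1 motif TGANTCA, in capitals, at position -55 from the start, and none to the other 3 motifs.
Tnxb promoter: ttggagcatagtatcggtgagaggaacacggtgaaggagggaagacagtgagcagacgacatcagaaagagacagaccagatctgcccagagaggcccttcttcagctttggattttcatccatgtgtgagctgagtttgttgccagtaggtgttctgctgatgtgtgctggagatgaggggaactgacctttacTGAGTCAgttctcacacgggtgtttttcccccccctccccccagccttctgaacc
The AP-1 letters stand in 6.75% of all windows. Of the 10 members, 7 had an entry among the RefSeq promoters, with 10 windows in all. The windows of Tnc, Postn, Sparc and Thbs2 held none of the 4 motifs, and that of Thbs4 held 2 overlapping matches to the TEAD motif GGAATG, which stands in 12.6% of windows.

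Tnc (ENSMUSG00000028364, GRCm38, chr4:63959785-64047015, minus strand) was at 4.17, 3.81, 5.46, 4.48 and 2.28 FPKM in IPF replicates 1 to 5 and at 4.49, 4.89, 3.93, 4.46 and 5.07 FPKM in the sham replicates. The groups overlapped, and IPF replicate 5 was the lowest of all 10 lungs. The log2 difference was -0.22 (95% interval -0.63 to 0.19, adjusted p = 0.576 in limma), and without IPF replicate 5 it was -0.03. Tenascin W (Tnn), the third tenascin that could be tested, differed by -0.23 on the log2 scale (adjusted p = 0.624 in limma), and tenascin R (Tnr) was below the limit for testing.

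Periostin and the SPARC proteins, which include the most abundant transcripts of the set, did not pass the test. Postn (ENSMUSG00000027750, GRCm38, chr3:54361109-54391037, plus strand), which helps collagen crosslinking, ranged from 71.8 to 87.0 FPKM in IPF and from 77.9 to 94.5 FPKM in sham lungs. Its log2 difference was -0.06, with a 95% interval of -0.23 to 0.11 and adjusted p = 0.721 in limma. Sparc (ENSMUSG00000018593, GRCm38, chr11:55394500-55423183, minus strand), a collagen-binding chaperone of the matrix, ranged from 1008 to 1135 FPKM in IPF and from 999 to 1140 FPKM in sham lungs. Its means were 1074 ± 57.9 FPKM and 1071 ± 57.1 FPKM (SD, n = 5 each), a log2 difference of 0.00 with a 95% interval of -0.22 to 0.23 (adjusted p = 0.990 in limma). Sparcl1 (ENSMUSG00000029309, GRCm38, chr5:104079111-104113733, minus strand), an anti-adhesive protein of vessel walls, was at 382 ± 28.1 FPKM in IPF and 363 ± 17.5 FPKM in sham lungs (SD, n = 5 each). Its log2 difference was 0.07, with an interval of -0.10 to 0.24 (adjusted p = 0.649 in limma). For these 3 genes the 95% intervals of the fold change lie between 0.852 and 1.18.

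Thrombospondins, which activate latent TGF-β (Thbs1) and restrain vessel growth (Thbs1 and Thbs2), did not pass either. Thbs1 (ENSMUSG00000040152, GRCm38, chr2:118111876-118127133, plus strand) was at 33.8, 26.2, 22.6, 32.9 and 32.2 FPKM in IPF and at 35.5, 31.2, 30.5, 36.8 and 32.2 FPKM in sham replicates 1 to 5. IPF replicates 2 and 3 were below all sham lungs, and the other 3 lay within their range. The log2 difference was -0.18 (95% interval -0.43 to 0.06, adjusted p = 0.410 in limma). Thbs2 (ENSMUSG00000023885, GRCm38, chr17:14665500-14694235, minus strand) was low, at 1.02 ± 0.232 FPKM in IPF and 0.955 ± 0.0855 FPKM in sham lungs (SD, n = 5 each), from 86 to 176 reads per lung. Its log2 difference was 0.06 (95% interval -0.29 to 0.41, adjusted p = 0.883 in limma).

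Thbs4 (ENSMUSG00000021702, GRCm38, chr13:92751590-92794818, minus strand), a thrombospondin of tendon and muscle, was barely detected, at 0.143, 0.0547, 0.161, 0.0501 and 0 FPKM in IPF and at 0.0184, 0.0678, 0.0379, 0.0183 and 0 FPKM in sham replicates 1 to 5. That is 0 to 10 reads per IPF lung and 0 to 4 reads per sham lung, and an exact two-sided permutation test gave p = 0.183. No difference was detected, and reads this few could hide one. Thbs3, a close relative of Thbs4, was at 15.7 ± 1.73 FPKM in IPF and 18.8 ± 1.97 FPKM in sham lungs (SD, n = 5 each), with 4 of 5 IPF lungs below all sham lungs, a log2 difference of -0.26 and adjusted p = 0.135 in limma.

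Connective tissue growth factor had the most negative log2 fold change of the 9 members tested, and 1 IPF lung did not share the fall. Ctgf (ENSMUSG00000019997, GRCm38, chr10:24595442-24598683, plus strand) was at 54.2, 29.5, 49.6, 41.3 and 101.8 FPKM in IPF replicates 1 to 5. The sham replicates 1 to 5 were at 124.1, 100.3, 133.2, 153.1 and 118.6 FPKM. The first 4 IPF lungs were below every sham lung, and IPF replicate 5 was just above the lowest sham lung, replicate 2. The means were 55.3 ± 27.7 FPKM and 125.8 ± 19.4 FPKM (SD, n = 5 each). The level in IPF was 2.46-fold lower, a log2 fold change of -1.30 (standard error 0.27, 95% interval -1.88 to -0.71, adjusted p = 0.0159 in limma, exact permutation p = 0.0159). The highest IPF value was 3.45 times the lowest, and in sham lungs this ratio was 1.53. Without IPF replicate 5 the log2 fold change was -1.55 (adjusted p = 0.000617 in limma). Gm15270, on the opposite strand of Ctgf, averaged 0.609 FPKM.

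IPF replicate 5 also had the highest summed level of 5 neutrophil genes, 289.0 FPKM against 49.1 FPKM in the lowest IPF lung and 12.4 to 69.2 FPKM in sham lungs. It had the lowest summed level of 10 fibroblast genes, 809.1 FPKM. No neutrophil gene passed in limma, and none was at 0 in all lungs. The same lung was the highest or the lowest of its group in 7 of the 10 matricellular genes, as was IPF replicate 3. The part of neutrophils and fibroblasts in the level of Ctgf in this lung was not tested.

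The relatives of Ctgf in the CCN family did not move as one. Wisp2, a CCN protein without the C-terminal domain that Ctgf carries, rose. It was at 38.6, 42.7, 48.4, 37.8 and 21.3 FPKM in IPF replicates 1 to 5. The sham replicates 1 to 5 were at 8.77, 20.1, 14.9, 17.9 and 19.2 FPKM. All IPF lungs were above all sham lungs, although IPF replicate 5 was only just so. The log2 fold change was 1.23 (standard error 0.25, 95% interval 0.67 to 1.79, adjusted p = 0.0171 in limma), and the gene passed in each of 10 fits without 1 mouse. Ctgf was 4.98 to 14.2 times as abundant as Wisp2 in sham lungs and 0.690 to 4.78 times in IPF lungs, and these ranges nearly touch. The ratio joins a fall and a rise already given, so it is a description and not a separate result.

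Cyr61, an immediate target of YAP that binds integrins, was at 46.4 ± 9.96 FPKM in IPF and 63.6 ± 16.4 FPKM in sham lungs (SD, n = 5 each), a log2 difference of -0.45 with adjusted p = 0.188 in limma. Nov differed by -0.54 on the log2 scale (adjusted p = 0.138 in limma), and by -0.69 without IPF replicate 3, where it passed (adjusted p = 0.0252). Wisp1, a Wnt target, was at 5.02, 5.85, 5.67, 6.42 and 2.29 FPKM in IPF and at 2.79, 2.88, 2.89, 3.16 and 3.70 FPKM in sham replicates 1 to 5. Its first 4 IPF lungs were above every sham lung and IPF replicate 5 was below them all. Over all mice its log2 difference was 0.62 (adjusted p = 0.169 in limma), and without IPF replicate 5 it was 0.88 and passed (adjusted p = 0.00075). Wisp3, at 13 reads or fewer per lung, differed by 0.24 (adjusted p = 0.851 in limma).

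**Figure D2:**
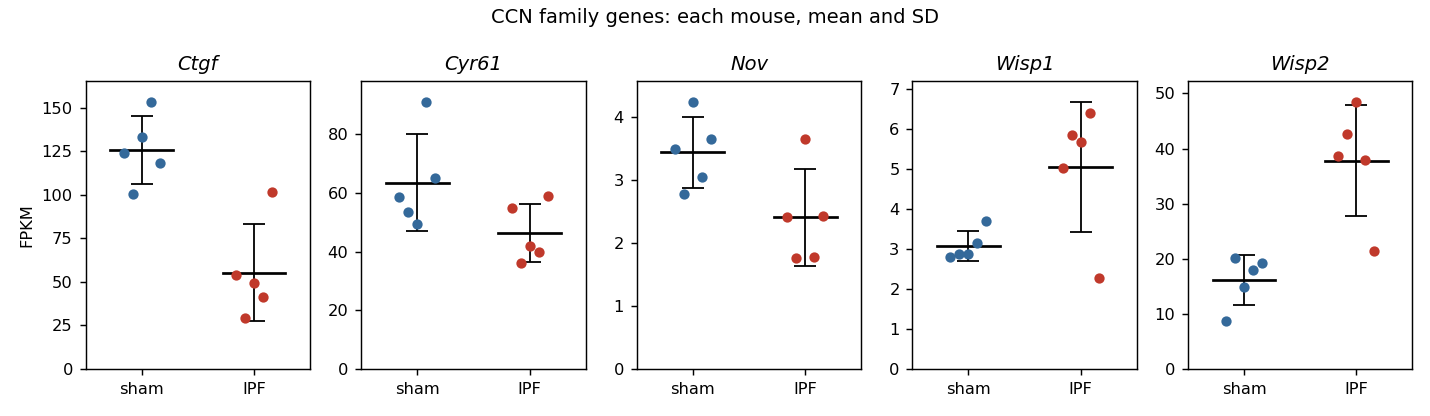
FPKM of Ctgf and 4 other CCN family genes in the 5 sham (blue) and 5 IPF (red) lungs, with 1 point per mouse, the mean as a line and bars of 1 SD, on axes that start at 0. Ctgf is lower and Wisp2 higher in IPF, and 1 IPF lung, replicate 5, is the highest of its group in Ctgf at 101.8 FPKM and the lowest in Wisp1 at 2.29 FPKM.

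Beyond the members, 22 other matricellular genes were listed and 15 could be tested. Of these, 1 rose (Wisp2), none fell in limma, and the median log2 fold change was -0.12, with 5 values above 0 and 10 below. Comp, Tnr, Spock1, Spock3, Ibsp, Dmp1 and Mepe were too low to test, and Mepe had no read in any lung. Igfbp7, an abundant binding protein of vessel walls, was at 715.5 ± 22.8 FPKM in IPF and 633.9 ± 22.4 FPKM in sham lungs (SD, n = 5 each). Its groups did not overlap, but the log2 difference of 0.17 did not pass (adjusted p = 0.261 in limma). Without IPF replicate 3 or without IPF replicate 5 the number of these genes that passed was 2.

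**Figure D3:**
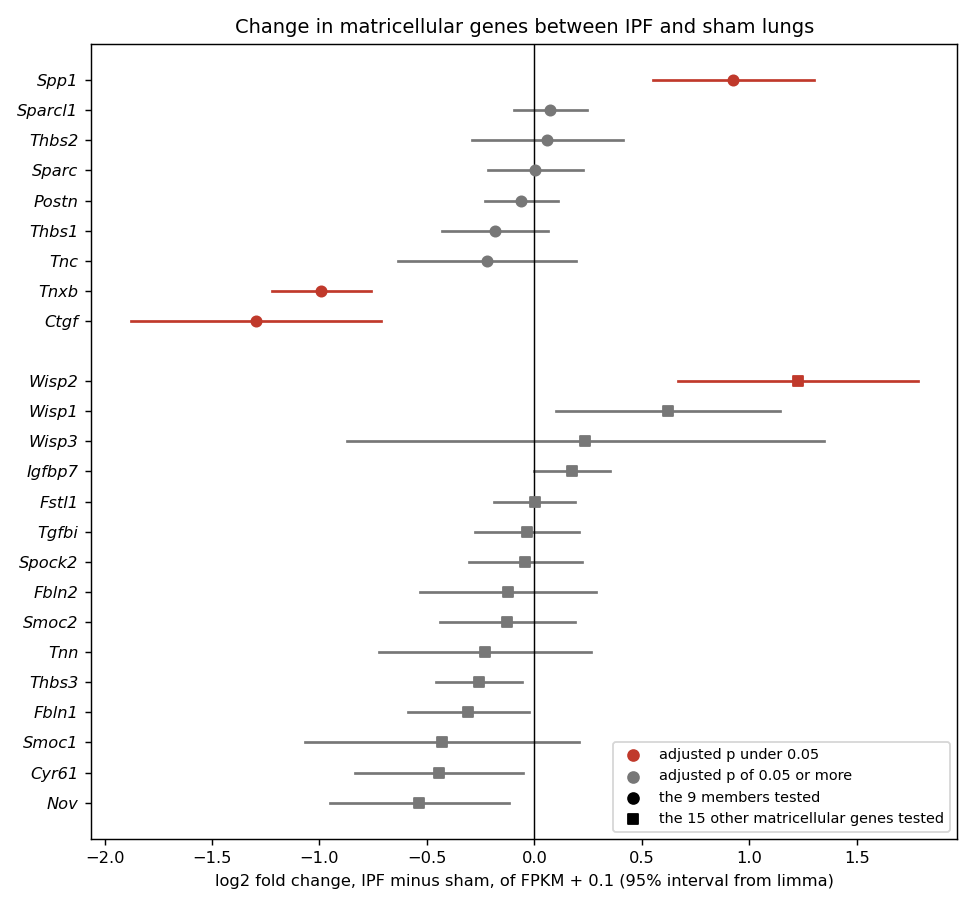
log2 fold change of FPKM + 0.1 between IPF and sham lungs for the 9 members (circles) and 15 other matricellular genes (squares) that could be tested, with 95% intervals from limma; red marks an adjusted p under 0.05. Spp1 at 0.92 and Wisp2 at 1.23 lie to the right of 0 and Tnxb at -0.99 and Ctgf at -1.30 to the left, and the other 20 are gray.

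The summed level of the 10 members overlapped between groups, at 1620 to 1721 FPKM in IPF and 1625 to 1789 FPKM in sham lungs, and Sparc alone gave 58.6% to 66.5% of it in IPF and 60.5% to 63.8% in sham lungs. The order of the middle members differed. In sham lungs the order by mean FPKM was Sparc, Sparcl1, Ctgf, Postn, Thbs1, Spp1, Tnxb, Tnc, Thbs2 and Thbs4, and the ranges of neighbors overlapped for Thbs1 and Spp1 and for Spp1 and Tnxb. In IPF lungs Postn stood before Ctgf, and Spp1 before Thbs1, with overlapping ranges for Postn and Ctgf, Ctgf and Spp1, and Spp1 and Thbs1. Ctgf was 3.28 to 8.46 times as abundant as Spp1 in sham lungs and 0.748 to 1.91 times in IPF lungs, which restates the fall of Ctgf and the rise of Spp1.

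Enzymes that cut or crosslink these proteins were mixed. Of 10 tested, 1 rose, 2 fell, and the median log2 fold change was -0.00. Plau, the urokinase that starts plasmin formation, rose from 2.68 ± 0.194 FPKM in sham to 4.78 ± 0.708 FPKM in IPF lungs (SD, n = 5 each), by 0.80 on the log2 scale (adjusted p = 0.00215 in limma). Adamts1, a protease of versican and thrombospondins, fell by 0.48 on the log2 scale (adjusted p = 0.0200 in limma). Fam20c, the kinase that phosphorylates osteopontin, fell by 0.37 (adjusted p = 0.0234 in limma). Adamts1 did not pass without IPF replicate 2 or without sham replicate 4 (adjusted p = 0.0538 and 0.0503 in limma). Fam20c did not pass without IPF replicate 1 or 4 or sham replicate 3 or 4 (adjusted p 0.0534 to 0.0612 in limma), whereas Plau passed in each of 10 fits that left out 1 mouse. Mmp9, a gelatinase that cleaves osteopontin, had no overlap between groups, with 0.899 to 1.63 FPKM in sham and 1.88 to 6.16 FPKM in IPF lungs, but its log2 difference of 0.98 did not pass (adjusted p = 0.10 in limma). Tgm2, the transglutaminase that crosslinks matrix proteins, had no overlap in the other direction, with 99.8 to 105 FPKM in sham and 80.1 to 96.3 FPKM in IPF lungs. Its log2 difference was -0.23 (adjusted p = 0.0675 in limma), and it passed without IPF replicate 3 (-0.27, adjusted p = 0.0440).

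Of 14 regulators and targets of TGF-β, YAP and SRF described here, the pathways known to control Ctgf, 3 rose, with a median log2 fold change of 0.11. The ligand Tgfb3 rose by 0.81 on the log2 scale (adjusted p = 0.00597 in limma), and its groups did not overlap. The ligand Tgfb2 and the signal carrier Smad3 each rose by 0.34 (adjusted p = 0.0345 and 0.0343 in limma), but these 2 calls depended on which mice were fitted. Of 10 fits that left out 1 mouse, Tgfb2 passed in 2, those without IPF replicate 5 or sham replicate 5, and otherwise had an adjusted p of 0.0594 to 0.0867 in limma. Smad3 passed in 2, those without IPF replicate 5 or sham replicate 1, and otherwise had an adjusted p of 0.0566 to 0.0865. The YAP target Ankrd1 had a log2 difference of -0.66 (adjusted p = 0.105 in limma), and it passed without sham replicate 1 (-0.80, adjusted p = 0.0471).

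Markers of the cells that make tenascins and Ctgf were read beside the falls. Of 10 fibroblast genes, 2 rose, the receptor Pdgfra by 0.35 and the proteoglycan Lum by 1.09 on the log2 scale (adjusted p = 0.0212 and 0.0415 in limma), and none fell. In this list 3 log2 fold changes were above 0 and 7 below, with a median of -0.03. Pdgfra did not pass without IPF replicate 4 or sham replicate 2 (adjusted p = 0.0599 and 0.0529 in limma), while Lum passed only without IPF replicate 1 or 5 or sham replicate 4 when 1 mouse was left out, with adjusted p of 0.0679 to 0.104 otherwise. Tcf21 passed as lower without IPF replicate 5 (log2 fold change -0.40, adjusted p = 0.0499 in limma). The summed level of the 10 genes was 809.1 to 1016 FPKM in IPF and 879.9 to 1021 FPKM in sham lungs. Of 7 smooth muscle genes none passed in limma, with a sum of 118.8 to 240.5 FPKM against 145.9 to 186.5 FPKM. IPF replicate 3 had the highest of these sums, and without it Cnn1 and Actg2 passed as lower (log2 fold changes -1.01 and -1.05, adjusted p = 0.0291 and 0.0161 in limma). Of 5 pericyte genes 1 fell, the proteoglycan Cspg4, by 0.43 on the log2 scale (adjusted p = 0.0173 in limma), with a sum of 185.2 to 227.6 FPKM against 178.2 to 199.7 FPKM. The other 4 had log2 fold changes above 0, and the median of the list was 0.08. Of 4 endothelial genes 1 rose, the tight junction gene Cldn5, by 0.56 (adjusted p = 0.0107 in limma), with a sum of 948.2 to 1061 FPKM against 822.5 to 882.1 FPKM. Most of the difference between these sums came from Cldn5, with means of 450.5 FPKM in IPF and 308.5 FPKM in sham lungs. The median log2 fold change of the endothelial list was 0.08. No gene of these 4 lists was at 0 in all lungs. The part of these cells in the results was not tested.

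Tissues that could be carried along with the lung were checked in the same way. Of 2 tendon genes tested, 1 rose, the tendon factor Scx, by 0.72 (adjusted p = 0.0376 in limma, and 0.0548 to 0.0912 without any 1 mouse other than IPF replicate 5 or sham replicates 2 or 4), with sums of 9.28 to 13.5 FPKM in IPF and 7.26 to 9.43 FPKM in sham lungs. None of 5 cartilage genes was high enough to test, with sums of at most 0.231 FPKM. Genes of platelets, mesothelium, ciliated airway, alveolar type 2 cells, heart, skeletal muscle, fat and red cells had none that passed in the limma test used for the members. The platelet gene Pf4 passed without IPF replicate 1 (log2 fold change 0.71, adjusted p = 0.0450 in limma), and the cilium gene Dnah5 without IPF replicate 3 (log2 fold change -1.09, adjusted p = 0.0269 in limma). The alveolar type 2 genes, led by surfactant protein genes, summed to 15322 to 17253 FPKM in IPF and 11290 to 18566 FPKM in sham lungs, so the defining genes of lung epithelium were high in all 10 libraries.

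**Figure D4:**
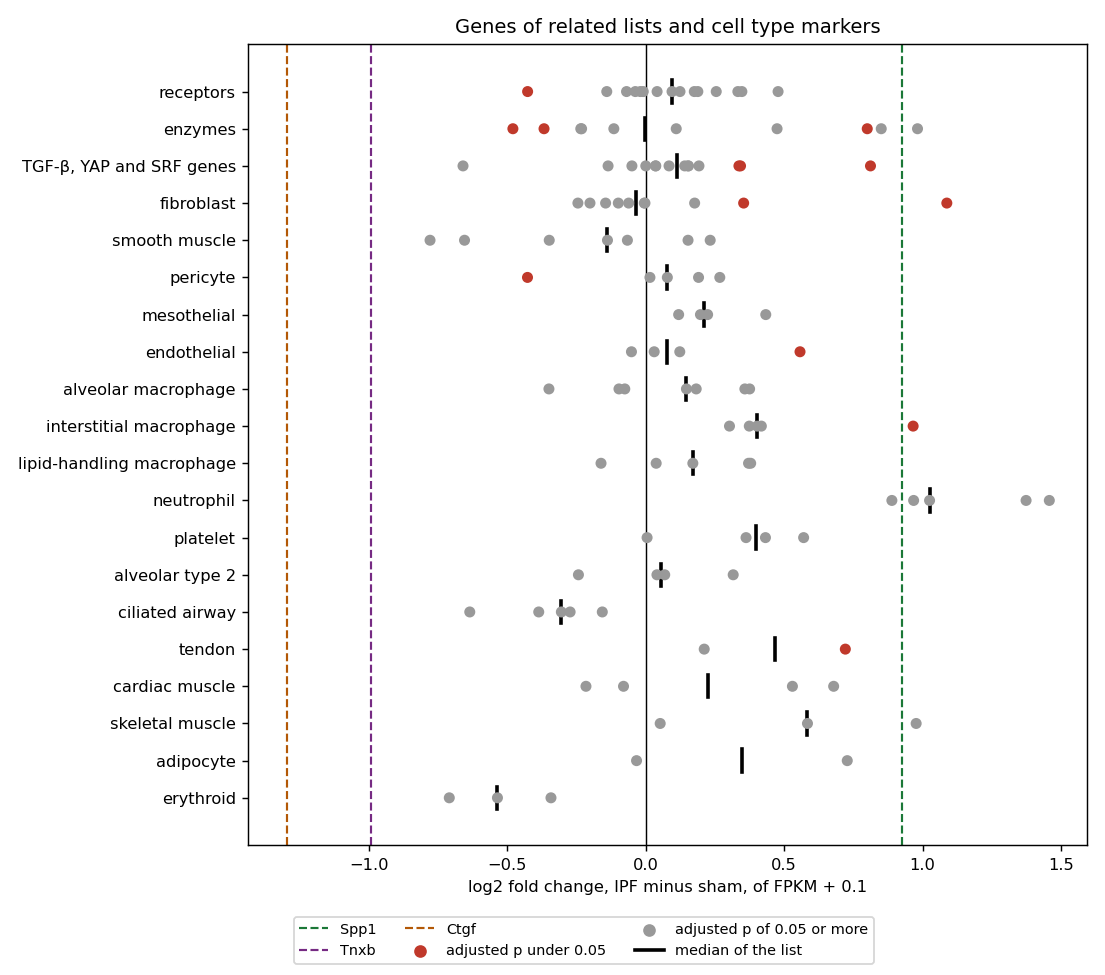
log2 fold change of FPKM + 0.1 between IPF and sham lungs for each tested gene of the related lists and of the cell type markers, 1 row per list, with a black bar at the list's median; red marks an adjusted p under 0.05 in limma and dashed lines mark Spp1, Tnxb and Ctgf. No gene drawn reaches the fall of Tnxb at -0.99 or of Ctgf at -1.30, and the medians farthest to the right are those of neutrophil genes at 1.03, skeletal muscle genes at 0.58, tendon genes at 0.47, and interstitial macrophage and platelet genes at 0.40 each.

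Genes whose mouse-to-mouse pattern was most like that of a member were sought among 13445 genes with a mean of at least 1 FPKM, after each group's mean log2 value was subtracted, so that the difference between groups played no role. For Spp1 the nearest was Rap1gap2 (Pearson's r = 0.92, Spearman's rho = 0.84 over 10 lungs, r = 0.80 without the 2 most extreme). Myc and Ica1 followed, at r = 0.62 and 0.69 without those 2 lungs. For Tnxb it was Filip1 (r = 0.94, rho = 0.94, r = 0.89 without the 2 most extreme). Senp8 and Iqce followed, at r = 0.87 and 0.85 without those 2 lungs. For Ctgf it was Agap3 (r = 0.94, rho = 0.99, r = 0.97 without the 2 most extreme). Susd6 and Gprc6a followed, at r = 0.70 and 0.47 without those 2 lungs. Among the members themselves, ranked by Pearson's r over all 10 lungs, the closest pair was Postn and Sparcl1 (r = 0.72, rho = 0.77, r = 0.49 without the 2 most extreme). By the same ranking the most opposed was Tnc and Sparcl1 (r = -0.81, rho = -0.62, r = -0.45 without the 2 most extreme). Spp1 and Sparc were more opposed than that pair on the other 2 measures (r = -0.67, rho = -0.76, r = -0.75 without the 2 most extreme). These values describe 10 lungs and were picked as the highest of many, so no p is given.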

How the data were processed

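Whole-lung mRNA of 10 wild-type mice, 5 IPF and 5 sham, was analysed. FPKM values were deposited, which the authors made with StringTie from HISAT2 alignments of reads trimmed by Fastp. The methods name GRCm39, but the gene positions are those of GRCm38, since the last gene of chromosome 1 ends at 195323493. FPKM times gene length gave whole reads (within 0.01 of a whole number for 100% of values under 200 reads), 15483046 to 19026843 per library.

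All genes whose FPKM averaged 0.1 or more were tested with limma 3.58.1 (R 4.3.3, linear model, trended empirical Bayes) on log2(FPKM + 0.1), IPF against sham, with no covariate and Benjamini-Hochberg adjustment over 20448 genes. This scale understates changes of low genes. DESeq2, which the authors used, was not run here, and the recovered reads were tested with limma voom as an alternative. Permutation tests were exact and two-sided over all assignments of 5 of 10 mice. The test was tested on simulated data for this comparison with 20448 genes, and it called 187 of 200 changed genes with 8 false calls. Only genes with ample reads were changed there, by folds larger than many of those called above. The same spread between mice was set for all genes. The share found therefore says nothing about smaller changes, low genes or genes with more spread. Tables were made in Python 3.11.15 with pandas 2.3.3.

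The 10 members, the gene lists and the motifs were chosen with earlier results of these data known. All members are named. Of each list, the genes that passed are named, or else the 2 with the smallest p may be. Cd9 and Gpnmb were named outside this rule. The CCN and thrombospondin relatives, the osteopontin receptors, Tnn, Igfbp7, Mmp9, Tgm2, Ankrd1 and the markers whose call changed when 1 mouse was left out were added after their values were seen. The 3 genes most like a member were ranked by Pearson's r over group-centred values. Alternatives were other pseudocounts (1 and 0.01), other filters (none, and a mean FPKM of 1), median-of-ratios scaling, quantile normalization, no variance trend, the replicate number as a block, limma voom on the recovered reads, each mouse left out in turn, and, chosen after seeing the data, autosomal genes alone and both IPF replicate 5 and sham replicate 1 left out. The promoters are RefSeq's (GRCm38.p6). The qRT-PCR, histology and flow cytometry were not analysed here. 1 gene of the TGF-β, YAP and SRF list is not reported here, and the values of that list leave it out.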

Additional observations from a re-analysis of the deposited data

Results flagged for a closer look

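In 112 groups of 5 lungs, 68 of the members and of genes picked from their relatives and markers and 44 of the summed levels of the lists, 9 held a lung that stood apart by Dixon's test (gap to the nearest lung over the range above 0.71). Chance alone gives about 1 group in 20. Single genes of the lists beyond these were not tested. None of the 9 was a value of a member. Igfbp7 was at 755.1 FPKM in IPF replicate 4, and the next IPF lung was at 712.0 FPKM. Lum was at 2.62 FPKM in sham replicate 4, and the next sham lung was at 1.69 FPKM. Dbp, a clock output gene, was at 3.49 FPKM in IPF replicate 5, and the next IPF lung was at 2.17 FPKM, with all sham lungs at 23.2 to 29.3 FPKM. Ctgf in IPF replicate 5 and Wisp1 in the same lung were not beyond the limit.

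Among the sums, neutrophil genes were at 289.0 FPKM in IPF replicate 5, and the next IPF lung was at 70.0 FPKM. IPF replicate 3 was apart in smooth muscle genes, at 240.5 FPKM with the next at 150.4 FPKM, and in ciliated airway genes, at 59.99 FPKM with the next at 19.9 FPKM. Alveolar type 2 genes were lowest in sham replicate 1, at 11290 FPKM with the next at 16792 FPKM. Cardiac muscle genes were at 135.3 FPKM in sham replicate 3, with the next at 37.3 FPKM, and adipocyte genes at 7.62 FPKM in sham replicate 5, with the next at 5.07 FPKM.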

How the results depend on the processing

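The count of members that passed was 3, 1 higher and 2 lower, under all 21 alternatives. Spp1 ranged from 0.81 to 1.05 on the log2 scale (adjusted p from limma 0.0019 to 0.0464), Tnxb from -1.05 to -0.87 (4.60e-05 to 0.0030) and Ctgf from -1.55 to -1.10 (0.000617 to 0.0457). The 6 other tested members did not pass under any alternative. Thbs2 could not be tested with a filter at a mean FPKM of 1. Members past both limits numbered 2 with quantile normalization and 2 with limma voom on the recovered reads, where Tnxb joined Ctgf, and 1 to 2 when 1 mouse was left out. Other matricellular genes that passed numbered 1 to 2 when 1 mouse was left out, and 2 without both IPF replicate 5 and sham replicate 1. Over all genes, those past both limits numbered 74 with a pseudocount of 1, 154 with a filter at a mean FPKM of 1, and 171 to 299 when 1 mouse was left out, against 233. Genes that passed numbered 775 (without IPF replicate 4) to 1620 (without IPF replicate 5), against 1196. The cause was not tested. Of the calls in the lists, Tgfb2, Smad3, Lum and Scx were lost with no filter and with no variance trend (adjusted p 0.0515 to 0.0718 in limma), Smad3 and Pdgfra with quantile normalization (0.0558 and 0.0559), and Lum with a pseudocount of 1 (0.0518), while Cd36 and Sftpb gained one with limma voom (0.0352 and 0.0432). Without both IPF replicate 5 and sham replicate 1, 7 gained one and 2 lost it.

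Whether replicate numbers pair the samples was not settled. The deviations of same-numbered IPF and sham lungs correlated only at -0.02 to 0.10, but 3 of 5 correlated best with their own number. With the replicate number as a block, 3 members passed (Spp1 at adjusted p = 0.0464 in limma), 2 other matricellular genes did (Wisp2 and Nov, the latter at adjusted p = 0.0315), and 1045 genes in all. Of 133 tested genes of the related and marker lists, 6 gained a call with the block (Nov, Mmp9, C1qa, C1qc, Fabp5 and Pf4, adjusted p 0.0204 to 0.0476 in limma) and 3 lost it (Fam20c, Tgfb2 and Scx, 0.0618 to 0.0767).

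Depth limits Thbs4, which had at most 10 reads per lung.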
